A study of Drosophila melanogaster with 18 samples.

Results

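The genes described here encode the nuclear subunits of the oxidative phosphorylation complexes of Drosophila melanogaster, measured by mRNA sequencing of single fly heads. They were taken from the deposited expression table by symbol alone: every gene whose dm6 symbol begins with ND- (complex I, NADH dehydrogenase), UQCR- (complex III, ubiquinol-cytochrome c reductase), COX (complex IV, cytochrome c oxidase) or ATPsyn (complex V, ATP synthase). This gave 80 of 17559 genes, of which 40 belonged to complex I, 9 to complex III, 16 to complex IV and 15 to complex V. Subunits with other symbols, such as the succinate dehydrogenase genes of complex II and blw, the alpha subunit of the ATP synthase, fell outside the rule and are given further on.

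Oxidative phosphorylation takes electrons from NADH and succinate through complexes I to IV of the inner mitochondrial membrane to oxygen, and complex V uses the proton gradient built on the way to make ATP. Most subunits are encoded in the nucleus and imported, while a small core is encoded by mitochondrial DNA, so both genomes supply each of complexes I, III, IV and V. Fly heads hold the brain and the retina, whose neurons and photoreceptors consume much ATP, together with muscles of the proboscis and antennae, glia and fat body. Flies also carry duplicate copies of many of these genes, named with an L at the end of the symbol, and a large share of such duplicates are expressed mainly in testis.

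The 18 libraries fall into 3 groups of 6 flies in an appetitive odor conditioning experiment. Odor flies were naive flies that met an odor and no sugar. Sorbose flies were trained with an odor and L-sorbose, a sweet sugar without nutritional value to the fly, and sucrose flies with an odor and sucrose, which is sweet and nutritious. Trained flies were collected 4 h after training, all groups had been food deprived beforehand and kept at 25 °C on equal periods of light and dark, and the study's methods name females, whereas the labels give neither sex, age nor the collection time of the odor flies. Each library is poly-A RNA of 1 head, broken off by vortexing or cut off, and the sources do not give which head was taken in which way or whether the 6 flies of a group came from separate trainings. The p-values therefore measure the spread among these flies.

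Values are RPKM, reads per kilobase of gene scaled to the size of the library. The effective library sizes recovered from the smallest steps of these values ran from 45.8 to 77.2 M reads (M, 1000000). They may include a normalization factor, so they need not equal the reads sequenced. They were lower in sucrose flies (54.3 ± 5.75 M, SD, n = 6) than in odor flies (65.7 ± 7.53 M, exact two-sided permutation test, p = 0.0108, adjusted over 3 comparisons p = 0.0325). Sorbose libraries lay between them (57.7 ± 6.85 M; exact permutation p = 0.0844 against odor). The photoreceptor marker list, which includes the opsin ninaE and the arrestin Arr2, summed to 15785 to 22214 RPKM in every head, while the ovary list summed to at most 1.96 RPKM.

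Of the 80 members, 64 reached a mean of 0.5 RPKM over all flies and were tested, and 59 reached 5 RPKM. All 16 members that were not tested carry the L ending: their means ran from 0 RPKM for ND-20L, which had no read in any fly, to 0.477 RPKM for COX7CL. The 59 members at 5 RPKM or more were among the most abundant mRNAs of the head. Their means ran from 29.2 RPKM for COX7AL2 to 851 RPKM for ATPsynC with a median of 165 RPKM, against a median of 11.1 RPKM over the 11062 genes tested, and 55 of the 59 lay in the top 10% of those genes. RPKM is a level per length, and by that scale the complexes differed: the median member had 120 RPKM in complex I (33 genes), 198 RPKM in complex III (6 genes), 265 RPKM in complex IV (9 genes) and 305 RPKM in complex V (11 genes).

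ATPsynC, which encodes the c subunit that forms the rotating membrane ring of the ATP synthase (chromosome arm 3R, 31216145 to 31219630, dm6), had the highest mean. Its levels in the odor flies, from replicate 1 to replicate 6, were 581, 1178, 709.8, 1080.4, 836 and 544 RPKM. The corresponding sorbose flies had 851, 1058, 694, 684, 863 and 823 RPKM, and the sucrose flies 1029, 1025, 1250.0, 731, 741 and 643 RPKM. The groups overlapped, with the lowest fly and the second highest fly both in the odor group. ATPsynbeta, the catalytic subunit, ran from 621 to 1065 RPKM in odor, from 722 to 977 RPKM in sorbose and from 700.2 to 1167 RPKM in sucrose flies. ATPsynB, a part of the stalk that holds the catalytic head still, had group means of 388, 404 and 421 RPKM in odor, sorbose and sucrose flies.

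In complex I one accessory subunit stood above the rest. ND-15 (chromosome arm 2L, 114726 to 156030) had a mean of 781 RPKM, and its group means were 785 ± 195 RPKM for odor, 801 ± 104 for sorbose and 757 ± 92.0 for sucrose (SD of 6 flies). The next was ND-MLRQ, at 344 ± 80.8, 361 ± 31.8 and 384 ± 73.5 RPKM in the same order of groups, whose mammalian counterpart NDUFA4 was found associated with complex IV. ND-51, the core subunit that binds NADH and the flavin at the entry of electrons, followed at 252 ± 22.5, 240.2 ± 12.96 and 245 ± 15.5 RPKM. The other 30 complex I members at 5 RPKM or more continued without a gap down to ND-B18 at 46.7 RPKM.

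Complex III was led by UQCR-14 (375 RPKM over all flies) and by the core proteins UQCR-C1 and UQCR-C2, which had odor means of 316 and 208 RPKM and sucrose means of 336 and 215 RPKM. Every base of the exons of UQCR-14 overlaps a gene on the opposite strand, CG32576, and the library kit did not keep strand, so reads of the pair cannot be told apart. ND-MNLL likewise shares all of its exons with CG45089 on the same strand and carried identical values. In complex IV, COX6B, COX7B and COX5A had the highest levels, at 492, 420 and 407 RPKM in odor flies and 522, 467 and 430 RPKM in sucrose flies. None of these 6 genes had a group whose range lay outside that of another.

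**Figure D1:**
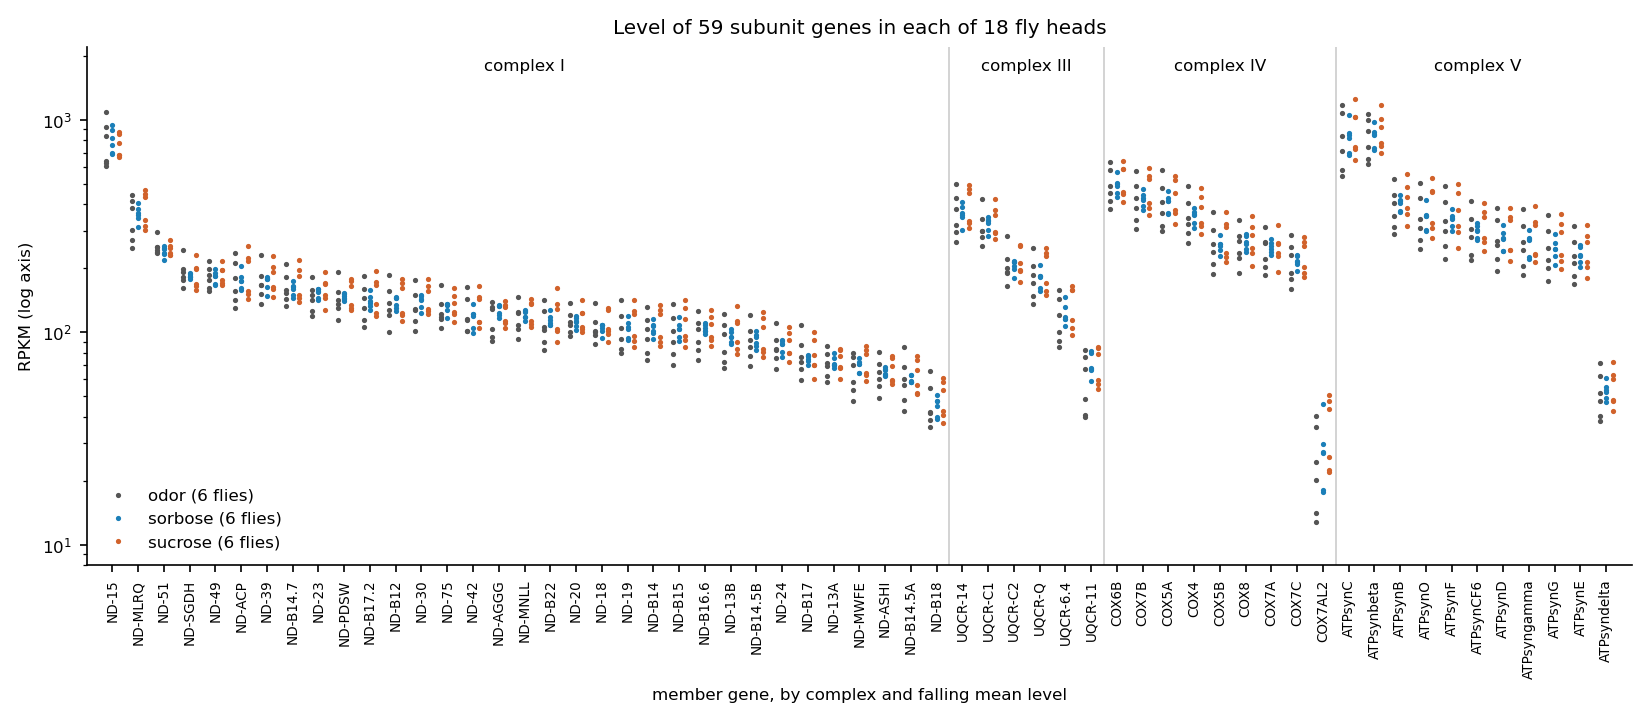
Each point is the RPKM (log axis) of 1 of 59 subunit genes in 1 fly, colored by group (6 flies each) and ordered by complex and falling mean. ND-15, ATPsynC and ATPsynbeta stand at the top with means of 781, 851 and 850 RPKM, COX7AL2 at the bottom at 29.2 RPKM, and the colors of the 3 groups overlap for every gene.

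The comparison of sucrose with odor flies asks which genes differed 4 h after training with a nutritious sugar in flies matched for odor exposure. Over all 11062 genes, limma called 13.1% higher and 14.4% lower at an adjusted p under 0.05 (Benjamini-Hochberg). Of the 64 members tested, 1 was called higher and 0 lower, and that member, UQCR-6.4L, was a duplicate at about 1 RPKM. Among the 59 members at 5 RPKM or more, limma called 0 and 0 had even an unadjusted p under 0.05. Differences were small and mostly of one sign: 59 of 64 members had a positive log2 difference, with a median of 0.10 against a median of -0.001 over all genes tested. By complex the medians were 0.08 for complex I, 0.13 for complex III, 0.09 for complex IV and 0.11 for complex V, all counted over tested members. These signs are not separate observations, since the members rose and fell together from fly to fly.

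Sorbose against odor asks the same of a sweet sugar that gives the fly no nutrition, and uses the same 6 odor flies. Here limma called 12.2% of all genes higher and 12.2% lower, and of the 64 members 1 higher (UQCR-11L) and 0 lower. Of the 59 members at 5 RPKM or more, 0 were called and 0 had an unadjusted p under 0.05 in the same limma fit. The median log2 difference of the members was 0.03, against 0.01 over all genes, with 51 of 64 positive.

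Sucrose against sorbose sets the training sugars against each other. limma called 0.0% of all genes higher and 0.00904% lower (1 gene, which is no member). It called 0 of the 64 members, and 1 of them, UQCR-11L, had an unadjusted p under 0.05. The median log2 difference was 0.06 and 57 of 64 members were positive, a sign that turned with the muscle covariate described further on. In all 3 comparisons 0 of the 64 members had groups of flies that did not overlap. Over all genes tested such groups occurred, for genes higher and lower in the group named first, at 4.45% and 5.00% in sucrose against odor, 3.64% and 3.53% in sorbose against odor, and 0.479% and 0.705% in sucrose against sorbose.

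How large a change these flies could have hidden is given by the intervals. The 95% interval of the log2 difference had a median half-width of 0.29 for the members, against 0.17 for all genes tested. For ATPsynC the sucrose minus odor difference was 0.16 ± 0.20 (SE), with an interval from -0.27 to 0.59 (limma adjusted p = 0.61), which runs from 17.2% lower to 50.01% higher. For COX6B it was 0.09 ± 0.13, from -0.20 to 0.37 (limma adjusted p = 0.67). The narrowest was that of ND-51, at -0.04 ± 0.06 in sucrose and -0.07 ± 0.06 in sorbose flies, with intervals from -0.17 to 0.09 and from -0.20 to 0.06 against odor (limma adjusted p = 0.68 and 0.45). The widest was that of COX7AL2, described with the duplicates.

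**Figure D2:**
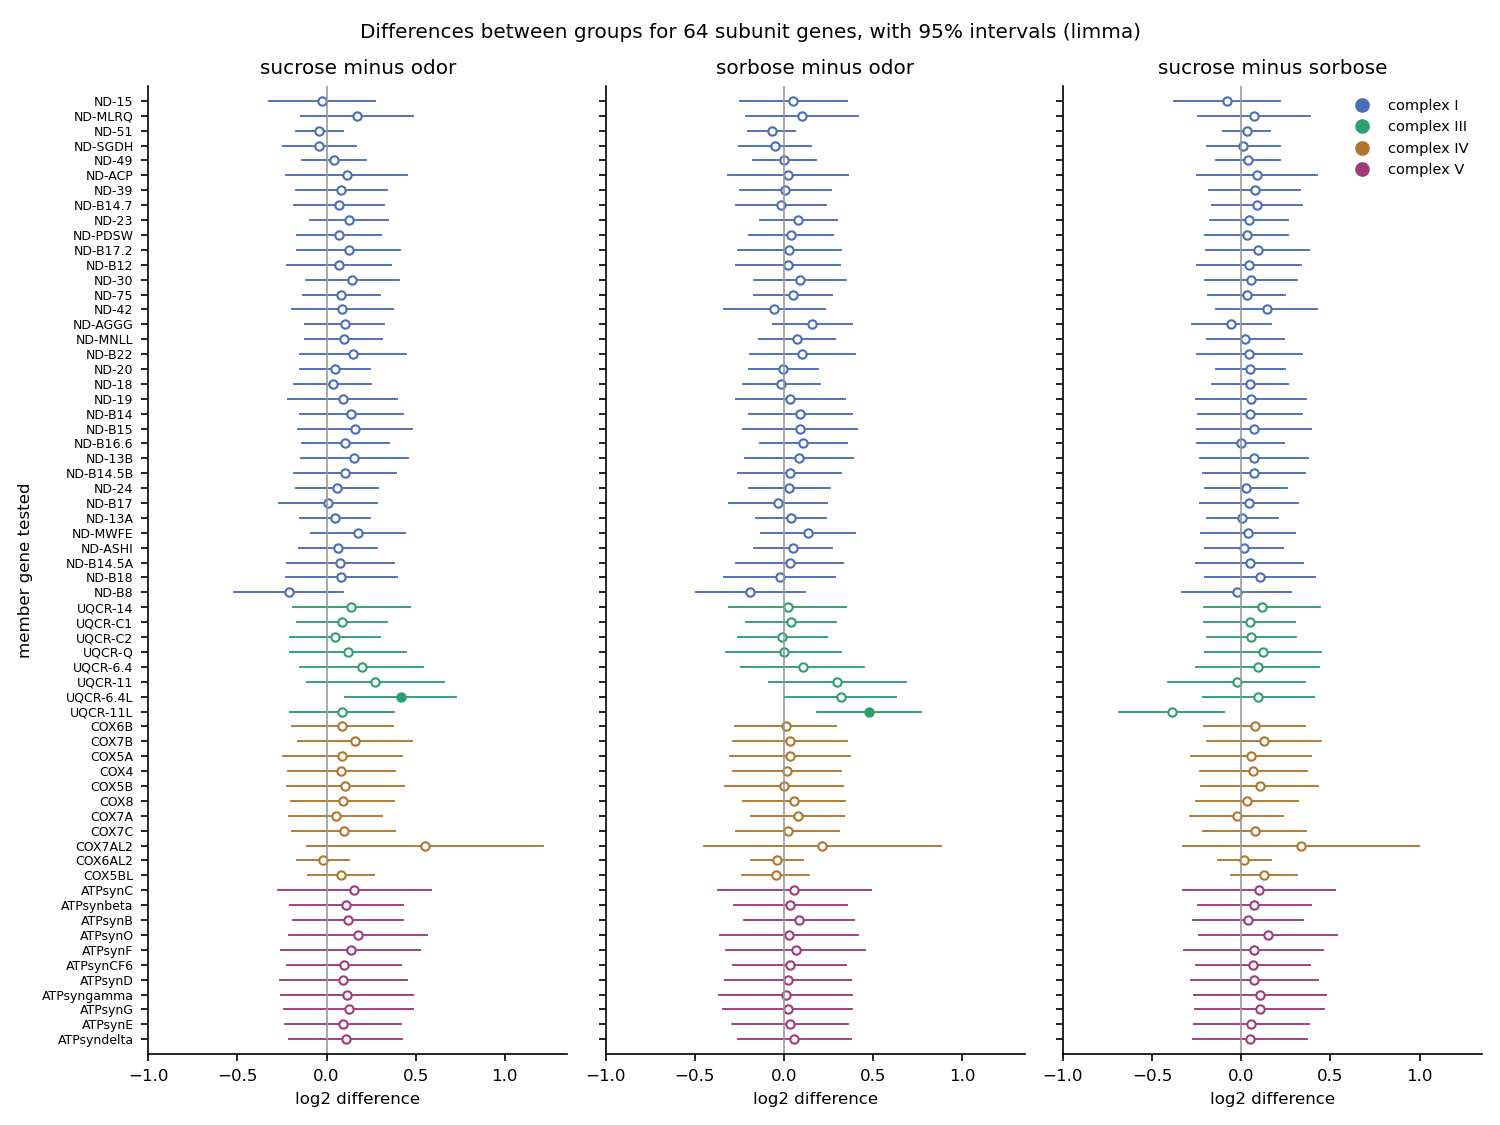
Points are limma log2 differences of the 64 tested members on the log2(RPKM + 0.5) scale for the 3 comparisons, lines are 95% intervals, colors mark the complex and filled points have an adjusted p under 0.05. UQCR-6.4L in sucrose minus odor (0.42) and UQCR-11L in sorbose minus odor (0.48) are the filled points, and of the other intervals those of UQCR-6.4L in sorbose minus odor and UQCR-11L in sucrose minus sorbose leave out 0.

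The wide intervals came from a spread between flies that the members shared. On the log2(RPKM + 0.5) scale the median standard deviation within groups was 0.25 for the 59 members and 0.13 for the 7931 other genes at 5 RPKM or more. The spread was not particular to the members. It was 0.25 for subunits outside the rule, 0.25 for the citric acid cycle list and 0.27 for the carriers, all given further on. It was smaller for mitochondrially encoded subunits (0.17), maintenance genes (0.14) and assembly factors (0.10). Muscle markers had 0.49 and photoreceptor markers 0.11. Each fly was given a departure, the mean over the 59 members of their log2 value minus the mean over all 18 flies. When a fly's departure was taken off all of its members, their median standard deviation fell to 0.07, and 86.8% of the summed squares within groups were gone. The spread became smaller for 58 of the 59 genes.

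The departures ran from -0.42 in odor replicate 6 to 0.40 in sucrose replicate 3, a 1.77-fold difference between these heads. Odor replicates 1 to 6 departed by -0.30, 0.39, -0.14, 0.18, -0.01 and -0.42. Sorbose replicates 1 to 6 departed by 0.06, 0.14, -0.11, -0.13, 0.003 and 0.01, and sucrose replicates 1 to 6 by 0.26, 0.20, 0.40, -0.15, -0.11 and -0.27. High and low heads thus occurred within each group, and the group means of -0.05 ± 0.30, -0.01 ± 0.10 and 0.06 ± 0.27 (SD, n = 6 each) differed by less than the standard deviation within odor or within sucrose flies. All 59 members were above their 18-fly mean in odor replicate 2 and sucrose replicate 3, and 0 of 59 were in odor replicate 6, sucrose replicate 4 and sucrose replicate 6.

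The complexes moved as one. In 16 of 18 flies the mean departures of complexes I, III, IV and V had the same sign, and the exceptions, odor replicate 5 and sorbose replicate 5, had departures near 0. Their size differed by complex: that of complex V was larger than that of complex I in 17 of 18 flies. In odor replicate 6, for example, complex I departed by -0.37 and complex V by -0.50, and in sucrose replicate 3 by 0.35 and 0.51. Summed over the 59 members the mRNA of these genes made up 2.06% to 3.13% of all RPKM in odor, 2.42% to 3.12% in sorbose and 2.16% to 3.09% in sucrose flies.

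**Figure D3:**
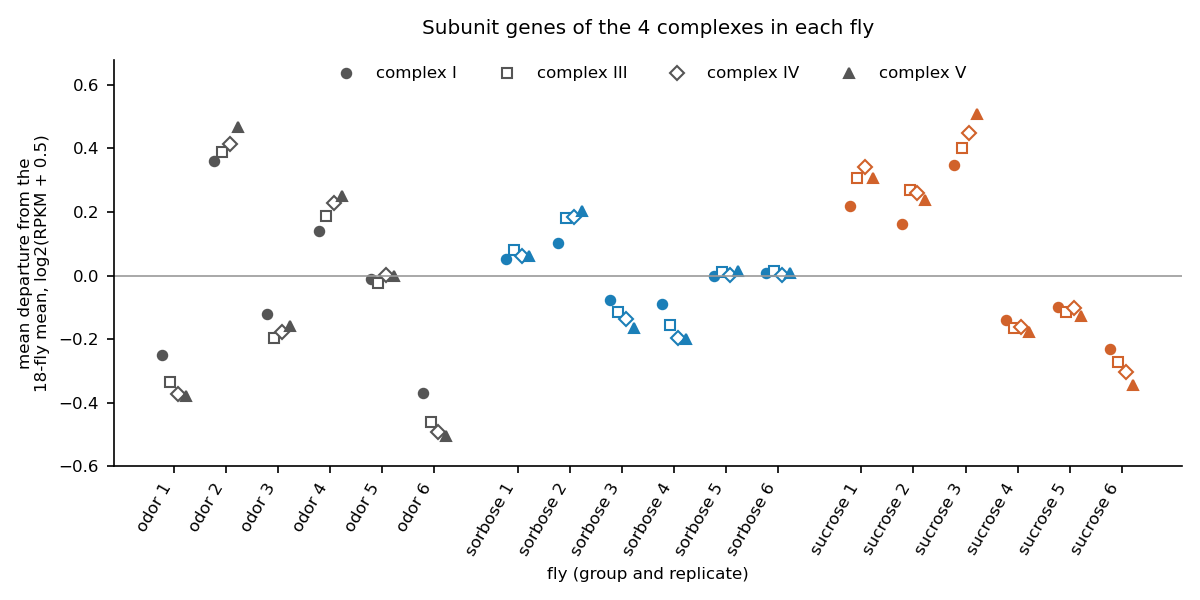
For each of the 18 flies the symbols give the mean log2 departure of the members of complexes I, III, IV and V from their mean over all flies. The 4 symbols of a fly lie close together, from -0.50 to -0.37 in odor replicate 6 and from 0.35 to 0.51 in sucrose replicate 3, and the odor and sucrose groups each span both sides of 0.

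Single members kept some spread of their own. ND-51 was the exception whose spread grew, from 0.10 to 0.20, when the departure was taken off: its level varied by a coefficient of variation of 6.99% over all 18 flies, the lowest among the 59 members, and stayed between 219.6 and 297 RPKM. ND-15 kept 0.22 of 0.25. Its levels were high in sorbose replicates 3 and 4, at 941 and 895 RPKM, both of which had negative departures, and low in sucrose replicate 1, at 680.3 RPKM, which had a positive one. COX7AL2 kept 0.38 of 0.58, the largest remainder.

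Muscle markers were high in the same 6 flies as the subunit genes, though not in the same order. The list of 13 genes, which includes the myosin heavy chain Mhc, the light chains Mlc1 and Mlc2 and the actin Act57B, summed to 5466 RPKM in sorbose replicate 2, 5341 in sucrose replicate 3, 5094 in odor replicate 2, 5034 in odor replicate 4, 5012 in sucrose replicate 1 and 4750 in sucrose replicate 2. These flies had the 6 highest departures of the subunit genes, among which sorbose replicate 2, first in muscle, was the sixth. In the other 12 flies the muscle sum was 1690 to 3739 RPKM. The pattern was not particular to muscle. Sums of the 6 glial markers were also highest in these 6 flies, at 905 to 1055 RPKM, against 746 to 892 RPKM in the other 12. Photoreceptor sums ran the other way, at 15785 to 18460 RPKM in these 6 flies and 17883 to 22214 RPKM in the other 12. No marker of the muscle list was at 0, and its sum ranged from 1989 to 5094 RPKM in odor, from 1690 to 5466 in sorbose and from 2385 to 5341 in sucrose flies. limma called 0 of 13 muscle genes in each comparison, with 1, 0 and 0 at an unadjusted p under 0.05. All genes tested had shares of 13.1% called higher and 14.4% lower in sucrose, and 12.2% each way in sorbose flies against odor. Whether the muscle count differs from those shares was not tested. The median log2 difference of the muscle genes was 0.24 in sucrose and -0.04 in sorbose flies against odor. The flight muscle list (Act88F, fln and TpnC4) summed to 4.22 to 9.75 RPKM in all flies. Of its 2 genes tested, Act88F was called higher in both trained groups, with means of 4.06 ± 1.33 RPKM (sorbose) and 3.69 ± 1.33 RPKM (sucrose) against 2.13 ± 0.498 RPKM for odor (0.76 ± 0.22 and 0.63 ± 0.22, limma adjusted p = 0.0202 and 0.0410), and fln had an unadjusted limma p of 0.0216 in sorbose flies (0.25 ± 0.10, adjusted p = 0.0738). In RNA from a whole head, fewer cells of a type and less RNA per cell cannot be told apart.

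With the mean log2 level of the muscle list as a covariate of the fit, an alternative added after the data had been seen, the members' median difference was -0.03 in sucrose and 0.04 in sorbose flies against odor. In sucrose against sorbose it turned from 0.06 to -0.07, and the members with a positive difference went from 57 to 3 of 64. The median standard error of the 59 members went from 0.14 to 0.08, and 15 of 59 members were positive in sucrose against odor in place of 56. The count of members called went from 1 to 0 in sucrose flies and from 1 to 2 in sorbose flies, where UQCR-11 joined UQCR-11L. No such fit was run with the glial or another marker list.

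**Figure D4:**
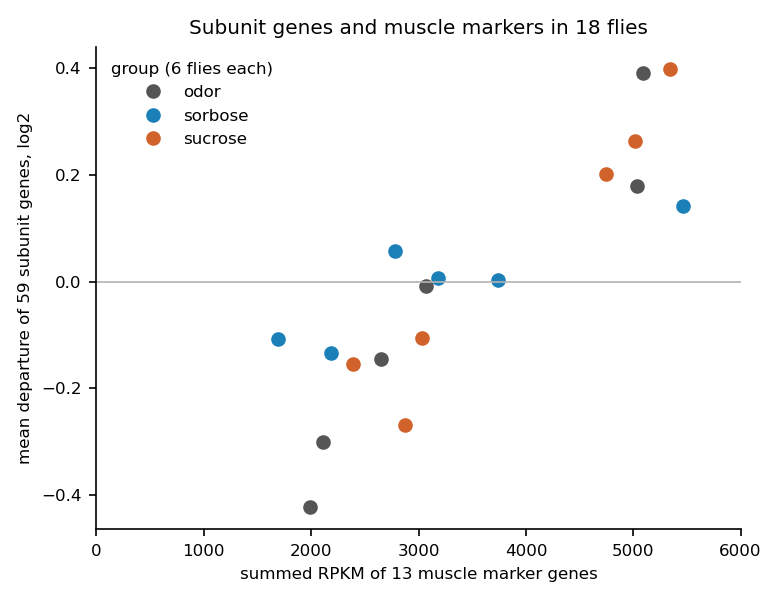
Each point is a fly: the x axis gives the summed RPKM of 13 muscle marker genes and the y axis the mean log2 departure of the 59 subunit genes, colored by group (6 flies each). The 6 flies with muscle sums of 4750 to 5466 RPKM are those with the 6 highest departures, and they come from all 3 groups.

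Some marker genes of other head tissues were called between the groups. Over all genes tested, limma called 13.1% higher and 14.4% lower in sucrose flies against odor, and 12.2% each way in sorbose flies. Whether the counts of these short lists differ from those shares was not tested. Of 7 fat body genes, 5 were called higher in sucrose and 2 in sorbose flies against odor, and their sum was 2991 to 8266 RPKM in odor, 2086 to 10534 in sorbose and 6131 to 23664 in sucrose flies. Of 5 neuronal genes 0 were called, and 0 had an unadjusted p under 0.05, in either limma comparison with odor. Of 6 glial genes 3 were called higher and 1 lower in sucrose flies, and 0 higher and 1 lower in sorbose flies. Of 4 hemocyte genes 2 were higher and 1 lower in both. Their part in the members' values was not tested.

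UQCR-6.4L, a duplicate of the small complex III subunit gene UQCR-6.4 (chromosome arm 3L, 16566750 to 16567300), was the member called in sucrose flies. Its levels in odor replicates 1 to 6 were 0.397, 0.631, 0.539, 0.905, 1.024 and 0.659 RPKM, and in sucrose replicates 1 to 6 they were 0.957, 1.43, 0.860, 0.842, 1.37 and 1.038 RPKM. All 6 sucrose flies lay above the odor mean of 0.693 ± 0.233 RPKM, but the ranges overlapped. The log2 difference was 0.42 ± 0.15 (SE), with a 95% interval from 0.10 to 0.73 (limma adjusted p = 0.0453). In sorbose flies it was 0.32 ± 0.15 (limma adjusted p = 0.125). These values rest on 10 to 34 reads a fly, and reads that match both copies of a duplicated gene may have been split between them. The call was lost under 7 of the alternatives, with an adjusted p of up to 0.42, and when any one of 11 flies was left out (odor replicates 1, 2, 3 and 6, sorbose replicates 2, 3 and 5, and sucrose replicates 1, 2, 5 and 6), with an adjusted p from 0.0512 to 0.112. UQCR-6.4 itself, at 124 RPKM, was not called.

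UQCR-11L, on chromosome arm 2R, was the member called in sorbose flies. It stood at 1.20, 1.58, 1.32, 0.772, 0.814 and 0.769 RPKM in sorbose replicates 1 to 6 and at 0.580, 0.808, 0.690, 0.441, 0.805 and 0.409 RPKM in odor replicates 1 to 6. The first 3 sorbose flies were well above every odor fly and the other 3 were near the highest odor flies. The log2 difference was 0.48 ± 0.14, from 0.18 to 0.77 (limma adjusted p = 0.0207), on 12 to 43 reads a fly. Sucrose flies, at 0.688 ± 0.152 RPKM, were close to odor flies (0.09 ± 0.14, limma adjusted p = 0.68), and sucrose minus sorbose was -0.39 ± 0.14 (limma adjusted p = 0.29). Without odor replicate 6 the sorbose call was lost (adjusted p = 0.0553).

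Its abundant counterpart UQCR-11 (chromosome arm 3L, 25120709 to 25126171) was lower in odor flies on average, with 59.1 ± 18.6 RPKM against 70.3 ± 8.60 in sorbose and 69.8 ± 14.5 in sucrose flies. The odor flies were themselves spread from 40.0 to 82.4 RPKM, and the differences of 0.30 ± 0.18 and 0.27 ± 0.18 were not called (limma adjusted p = 0.25 and 0.29). With the muscle covariate the sorbose difference was 0.31 ± 0.11 (limma adjusted p = 0.0441), a gene singled out after its values were seen.

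COX7AL2 (chromosome arm 2L, 2192525 to 2197912) was the most abundant duplicate, and the most variable of the 59 members, with a coefficient of variation of 41.0%. It had 12.8, 35.7, 20.2, 40.3, 24.4 and 14.1 RPKM in odor replicates 1 to 6, from 17.7 to 46.0 RPKM in sorbose flies, and 50.8, 47.4, 43.5, 22.4, 25.9 and 21.9 RPKM in sucrose replicates 1 to 6. The flies above 35 RPKM were the 6 with the high muscle sums. Sucrose minus odor was 0.55 ± 0.31, with an interval from -0.11 to 1.21 (limma adjusted p = 0.21). Of the 17 duplicates whose parent symbol is also a member, 13 were below 0.5 RPKM. COX5BL, at 0.740 RPKM, lies wholly within Trmt6 on the opposite strand, and sucrose minus sorbose was 0.13 ± 0.09 (limma adjusted p = 0.69). Among members without the L ending ND-B8 was the exception in level, at 0.920 RPKM on 11 to 39 reads, and its negative differences of -0.21 ± 0.15 and -0.19 ± 0.15 against odor were not called (limma adjusted p = 0.30 and 0.37).

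Subunits with other symbols were counted in the same way. The shares over all genes tested were 13.1% higher and 14.4% lower in sucrose and 12.2% each way in sorbose flies against odor. Whether the counts of this list differ from those shares was not tested. Of 13 genes tested in the list of subunits outside the rule, 1 was called higher and 0 lower in each comparison with odor, and the median log2 differences were 0.09 in sucrose and 0.04 in sorbose flies. SdhA to SdhD of complex II, RFeSP and Cyt-c1 of complex III, levy and cype of complex IV and blw of complex V were not called. blw, the partner of ATPsynbeta in the catalytic head, had 760 RPKM in odor and 809 RPKM in sucrose flies. The called gene was mge, which encodes the Tom22 receptor of the outer membrane import complex and is no subunit of the chain: it went from 40.2 ± 4.61 RPKM in odor to 48.0 ± 1.94 in sorbose and 49.5 ± 2.37 in sucrose flies (log2 difference 0.26 ± 0.06 and 0.30 ± 0.06, limma adjusted p = 0.0091 and 0.0028).

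For the 13 subunits encoded by mitochondrial DNA, limma called 0 of 13 in each comparison, with 0 at an unadjusted p under 0.05 in each. Beside this stand the shares over all genes tested, 13.1% higher and 14.4% lower in sucrose and 12.2% each way in sorbose flies against odor. Whether the count of 0 differs from those shares was not tested. The sum of these subunits, led by mt:CoIII and mt:CoI of complex IV, was 22868 to 28878 RPKM in odor, 22284 to 27231 in sorbose and 22543 to 30734 in sucrose flies. In sorbose flies 1 of 13 had a positive difference from odor, with a median of -0.07, whereas in sucrose flies 7 of 13 were positive with a median of 0.02. Poly-A selection can favor or lose mitochondrial transcripts, so these sums are compared only between flies.

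Genes that maintain mitochondria and their DNA included several that were called in both trained groups. Of 11 genes of biogenesis and maintenance, 4 rose and 2 fell in sucrose flies, and 4 rose and 2 fell in sorbose flies. The shares over all genes tested were 13.1% higher and 14.4% lower in sucrose and 12.2% each way in sorbose flies. Whether the counts of this list and of the lists below differ from those shares was not tested. mtSSB, the protein that binds single-stranded mitochondrial DNA at replication, rose from 4.83, 5.43, 4.96, 5.56, 7.30 and 4.44 RPKM in odor flies to 10.025, 6.22, 11.2, 9.74, 7.86 and 8.36 RPKM in sorbose and 7.08, 8.14, 8.66, 10.3, 10.02 and 9.92 RPKM in sucrose flies. Of the 12 trained flies, 10 lay above every odor fly. The log2 differences were 0.69 ± 0.13 in sucrose and 0.66 ± 0.13 in sorbose flies (limma adjusted p = 0.0016 and 0.0036).

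The other called genes of that list were singled out after their values were seen. srl (spargel), the fly counterpart of the coactivator PGC-1, rose from 0.859 to 1.70 RPKM in odor flies to 1.91 to 3.58 in sorbose and 1.76 to 4.52 in sucrose flies, so that neither trained group overlapped odor (0.83 ± 0.17 and 0.84 ± 0.17, limma adjusted p = 0.0042 and 0.0025). TFAM, which packages mitochondrial DNA and starts its transcription, rose from 15.9 ± 0.759 RPKM to 18.3 ± 1.19 (sorbose) and 18.8 ± 1.08 RPKM (sucrose) (0.20 ± 0.05 and 0.24 ± 0.05, limma adjusted p = 0.0087 and 0.0023). clu, needed for the placement of mitochondria in the cell, rose by 0.54 ± 0.17 and 0.49 ± 0.17 (limma adjusted p = 0.0298 and 0.0422). Pink1, the kinase that marks damaged mitochondria for removal, fell from 74.2 ± 10.6 RPKM in odor to 59.9 ± 5.78 in sorbose and 59.8 ± 1.94 in sucrose flies. The nuclear receptor ERR fell from 17.7 ± 1.79 to 14.8 ± 0.886 and 14.04 ± 1.82 RPKM. The calls of clu and, in sorbose flies, of ERR lay near the threshold. Where leaving out a fly ended the call, the clu difference was 0.43 to 0.55 in sorbose and 0.37 to 0.49 in sucrose flies, and that of ERR in sorbose flies -0.25 to -0.20. Without odor replicate 1, 3 or 6 clu was called in neither comparison (adjusted p = 0.0609 to 0.107), nor without sorbose replicate 3 or 5 (0.0501 to 0.0513). It was also lost in sorbose flies without sorbose replicate 1 (0.0644) and in sucrose flies without sucrose replicate 1, 2, 3 or 4 (0.0689 to 0.0867). ERR in sorbose flies was lost without odor replicate 1, 2 or 6 or sorbose replicate 1, 2 or 4 (0.0553 to 0.0866). With all flies kept, clu was lost in both comparisons with no filter or only the 2 groups compared (0.0511 to 0.0951) and in sucrose flies with the muscle covariate (0.0558), and ERR in sorbose flies with no filter (0.0514) or sample quality weights (0.0788). Pink1 was not called with quantile normalization (adjusted p = 0.0718 and 0.0928 in sorbose and sucrose flies) nor, in sorbose flies, with only the 2 groups compared (0.0574). mtSSB, srl and TFAM kept their calls under every setting run. Sucrose against sorbose gave 0 calls in this list by limma, and 0 at an unadjusted p under 0.05.

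**Figure D5:**
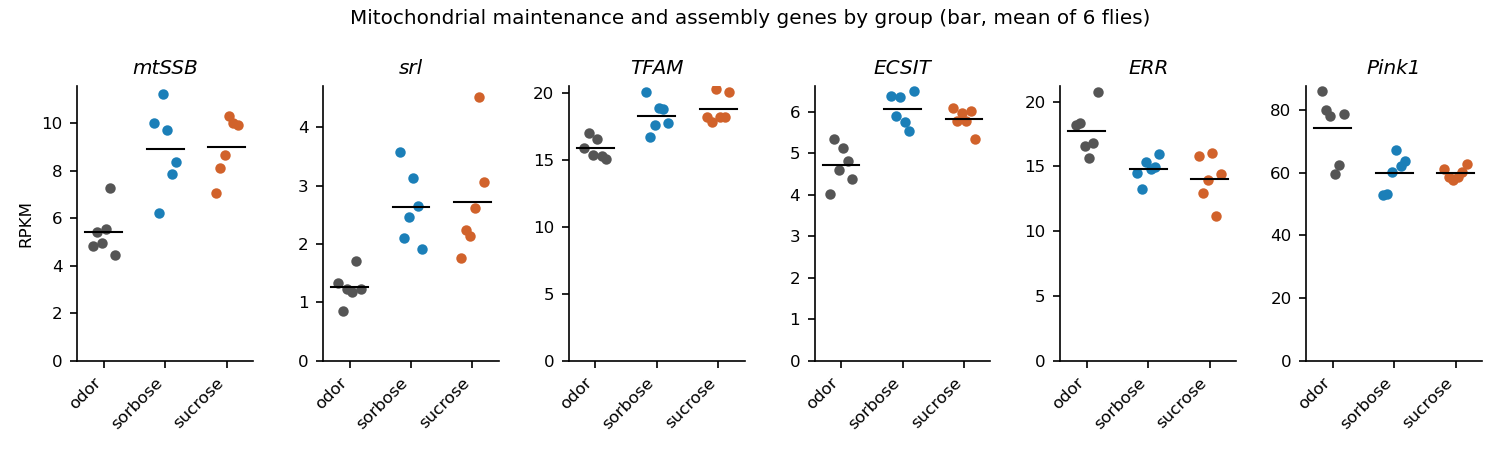
Points are RPKM in single flies of 6 genes of mitochondrial maintenance or complex assembly, in odor, sorbose and sucrose groups (6 flies each), and bars are group means. mtSSB, srl, TFAM and ECSIT are higher in both trained groups than in odor flies, ERR and Pink1 lower.

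Of 7 assembly factors tested, 2 rose and 0 fell in each comparison with odor. ECSIT, which in mammals takes part in complex I assembly, averaged 4.72 ± 0.487 RPKM in the odor group, 6.08 ± 0.390 in the sorbose group and 5.83 ± 0.275 in the sucrose group (0.34 ± 0.06 and 0.28 ± 0.06, limma adjusted p = 0.0022 and 0.0025). Surf1, a complex IV assembly factor, was the other called in sucrose flies (0.12 ± 0.04, limma adjusted p = 0.0367, lost without odor replicate 1, 3, 4 or 6 or sucrose replicate 1, 3, 5 or 6 at 0.0530 to 0.0867, and called in sorbose flies without odor replicate 2 at 0.0216), and Scox, which delivers copper to complex IV, the other in sorbose flies (0.34 ± 0.09, limma adjusted p = 0.0107). With all flies kept, the Surf1 call in sucrose flies was also lost with cyclic loess (0.0617), quantile normalization (0.171) and the muscle covariate (0.0581). The same held with only the 2 groups compared (0.0654) and with the replicate block (0.0679). Scox was called in sucrose flies too when odor replicate 5 was left out (limma adjusted p = 0.0255) and with sample quality weights (0.0246). Between the trained groups limma called 0 of the 7, with 0 at an unadjusted p under 0.05.

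Of 12 genes of the citric acid cycle and pyruvate dehydrogenase, 0 rose and 1 fell in sucrose flies, and 0 were called in sorbose flies, where 1 had an unadjusted p under 0.05 in limma. Scsalpha1, a subunit of succinyl-CoA ligase, had 217, 519, 237, 299.9, 293 and 203 RPKM in odor flies and 209.9, 193, 267, 181, 158 and 169.6 RPKM in sucrose flies. Odor replicate 2 was the highest odor fly. The sucrose difference from odor was -0.53 ± 0.18 (limma adjusted p = 0.0413), while sorbose flies, at 258 to 346 RPKM, were at 0.06 ± 0.18 from odor. Without odor replicate 2 the sucrose difference was -0.35 (adjusted p = 0.0623), and the call was also lost without odor replicate 4 or 5, sorbose replicate 5 or 6, or sucrose replicate 1, 2, 4, 5 or 6 (0.0501 to 0.0877). With all flies kept the call was lost with no filter (0.0677) or only the 2 groups compared (0.0933). Between the trained groups limma called 0 of these 12 genes, with 2 at an unadjusted p under 0.05. They were Scsalpha1 and ScsbetaA, with sucrose minus sorbose at -0.59 ± 0.18 for both (limma adjusted p = 0.23 and 0.20). Under sample quality weights the Scsalpha1 difference between sugars was called (-0.61, adjusted p = 0.0234). Of 5 carriers of ADP, phosphate and the outer membrane (sesB, Ant2, Mpcp1, Mpcp2 and porin) limma called 0 in each comparison, with 0 at an unadjusted p under 0.05.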

How the data were processed

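RNA of 18 single heads was sequenced from non-stranded TruSeq poly-A libraries. Per the submitters' processing notes, reads were processed with CASAVA 1.8.2, aligned to dm6 with TopHat2 2.0.13 and normalized with edgeR 3.18.1, and the authors deposited 1 table of RPKM values for 17559 genes. Symbols came from a dm6 annotation, which matched 17253 genes. Sequences of the members were not used here.

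Values were tested as log2(RPKM + 0.5) with limma 3.58.1 (lmFit, contrasts, eBayes with trend) in R 4.3.3, on 11062 genes with a mean of at least 0.5 RPKM, all 18 flies in 1 fit, Benjamini-Hochberg adjustment over all genes and a threshold of 0.05. For genes near the pseudocount of 0.5 the log2 difference is smaller than that of the RPKM values themselves. Effective library sizes were compared by exact permutation tests (SciPy 1.17.1). They were recovered from the RPKM steps and exonic lengths, and 98.1% of the values worth 0.5 to 50 reads came out within 0.05 of a whole read. The fit was also run on simulated data in which genes varied independently of each other. These data lacked the spread between flies that the members shared, so that run does not bear on it.

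The members and gene lists were chosen with earlier results of these data known. Genes named are the 3 most abundant members of each complex, called members at 5 RPKM or more with the largest changes (there were none), the 3 members with the smallest p between sugars, the called gene with the smallest p in sucrose against odor in each pathway list, and the duplicates. Listed symbols that matched no gene under that spelling (Cyt-c-p, tam and wupA among them) were not analysed here. Pseudocounts, scalings, a gene length correction, filters, a replicate block, sample weights and leaving out each fly were tried as alternatives.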

Additional observations from a re-analysis of the deposited data

Results flagged for a closer look

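Among 36 measures taken in the 3 groups of 6 flies (108 group tests, of which chance alone would mark about 5.4, or 1 in 20), a single fly stood apart from the others of its group. This was odor replicate 2 for ND-51, at 8.2156 on the log2(RPKM + 0.5) scale, while the other odor flies lay between 7.89 and 7.97. In RPKM it had 297, and the others 237 to 251. The same fly had the highest departure of the subunit genes in its group (0.39) and the highest muscle sum (5094 RPKM).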

How the results depend on the processing

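The members' median differences kept their sign in sucrose against odor when any fly was left out (0.03 to 0.19), but not in sorbose against odor (-0.04 to 0.13, negative without odor replicate 1 or odor replicate 6) or in sucrose against sorbose (-0.01 to 0.12, negative without sucrose replicate 3). The count of members called in sucrose against odor, 1, became 2 with quantile normalization (ND-23 and ND-MLRQ in place of UQCR-6.4L) and 0 with cyclic loess, the gene length correction, no filter, a minimum of 5 RPKM, only the 2 groups compared, values relative to the members' mean and the muscle covariate. In sorbose against odor, 1 became 2 with quantile normalization (ND-AGGG joined) and with the muscle covariate, and 0 with a minimum of 5 RPKM, sample quality weights and values relative to the members' mean. Leaving out single flies gave counts from 0 to 1 in both and 0 in sucrose against sorbose. The muscle covariate and the values relative to the members' mean were chosen after seeing the data, and the latter shifts all genes by a median of -0.11 in sucrose against odor. A minimum of 5 RPKM leaves the called duplicates untested, and for the other settings the cause was not tested. With the muscle covariate the members' median in sucrose against sorbose turned from 0.06 to -0.07. With the gene length correction the members' medians were 0.06 in sucrose and -0.02 in sorbose flies against odor. Quantile normalization made them larger, at 0.18 and 0.11, and all 59 members at 5 RPKM or more were positive in both comparisons.

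With the replicate number as a block the counts were 1, 1 and 0, as without it, and the calls of Scsalpha1 (adjusted p = 0.0581) and Surf1 (adjusted p = 0.0679) in sucrose flies were lost. Correlations between flies of the same number ran from -0.34 to 0.44. Flies of unlike number were not compared in this way, so whether the numbers pair the flies is not known. Of 84 differences of named genes 21 were called. Of these, 12 kept their call under every setting, 9 lost it under at least 1, and 0 changed sign. Of the 63 not called, 5 were called under some setting and 40 changed sign under some setting. With 6 flies a group and a shared spread between heads, changes of the members smaller than their intervals could not be seen.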
